A study of Mus musculus with 18 samples.

Results

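The genes described here are the nuclear factors of activated T cells (NFAT) and the calcineurin phosphatase with its regulators, in regulatory T cells (Tregs) that lack CD25, the alpha chain of the IL-2 receptor encoded by *Il2ra*. They were taken by symbol from the table of gene counts and are 10 of its 50600 genes. The 4 NFAT factors are *Nfatc1*, *Nfatc2*, *Nfatc3* and *Nfat5*. The 3 catalytic A subunits of calcineurin are *Ppp3ca*, *Ppp3cb* and *Ppp3cc*, the regulatory B subunit is *Ppp3r1*, and the 2 regulators of calcineurin are *Rcan1* and *Rcan3*.

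RNA-seq was performed on FACS-purified Foxp3+ Tregs from 18 C57BL/6 mice, with 1 mouse per sample. The 5 thymic CD25 KO samples came from CD25flox/Foxp3-YFP/Cre (CD25cKO) mice of 3 to 4 weeks, in which Cre is expressed from the *Foxp3* locus and which were "cured" of autoimmunity by WT splenocytes injected intravenously into neonates, and the 5 thymic WT samples came from Foxp3/RFP reporter mice of the same age. The 4 splenic CD25 KO samples were YFP+ cells of CD25flox/Foxp3eGFP-Cre-ERT2/R26Y mice, and the 4 splenic WT samples came from reporter controls. Both splenic groups received tamoxifen at 7 to 10 weeks of age and were harvested 10 to 14 days after induction. The thymic WT and CD25 KO mice carried different *Foxp3* reporter alleles, and only the thymic CD25 KO mice had received splenocytes, so these cannot be told apart from the loss of CD25. Thymic and splenic samples carried different dates in their headers, and what the dates stand for is not given in the sources used here. Tissue, date, mouse model, age and tamoxifen changed together and cannot be told apart between the tissues.

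NFATc1, NFATc2 and NFATc3 are kept in the cytoplasm of resting T cells by phosphorylation. When the T cell receptor raises intracellular calcium, calmodulin activates calcineurin, a dimer of a catalytic A and a regulatory B subunit, which dephosphorylates these factors so that they enter the nucleus. In Tregs, NFAT binds DNA together with Foxp3, whereas the IL-2 receptor signals mainly through STAT5. NFAT5 lacks the calcineurin docking region and responds to osmotic stress, and the RCAN proteins bind calcineurin and can inhibit it.

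Thymic libraries held 17239774 to 23993674 counts and splenic ones 25258341 to 32639570, and the 10 genes had 132 to 19099 counts in any sample. Levels are given as counts per 1000000 counts of the library (CPM) on 1 scale set over the 18 samples, and gene positions are in GRCm38. *Il2ra* was at 524 to 682 CPM in the 5 thymic WT and 95.9 to 280 CPM in the 5 thymic CD25 KO mice, and at 488 to 539 CPM in splenic WT and 168 to 208 CPM in splenic CD25 KO mice, so the groups did not overlap within a tissue. *Foxp3* had 270 CPM or more in every thymic and 204 CPM or more in every splenic sample, and *Rag1*, a gene of immature thymocytes, was at 14 to 93.1 CPM in thymic WT and 17.5 to 47.2 CPM in thymic CD25 KO samples. Fold changes and p-values are from edgeR's quasi-likelihood test within a tissue with Benjamini-Hochberg adjustment over all genes tested, and genes with an adjusted p below 0.01, the false discovery rate (FDR) used by the study, are called differentially expressed (DE). In sorted cells, a change in the make-up of the population and a change of RNA per cell cannot be told apart.

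Promoter sequences are shown for 4 genes of the pathway, namely the 3 that were DE in thymic Tregs and *Rcan1*, whose inner promoter is a textbook target of NFAT. They were taken from RefSeq (GRCm38.p6) and run 5′ to 3′ on the strand of the gene, from 250 bases before to 50 bases after the start of a transcript, with the NFAT core letters GGAAA, or TTTCC where the core lies on the other strand, in capitals. The *Nfatc2* window is at chr2:168601608-168601907, minus strand, the *Ppp3cb* window at chr14:20546524-20546823, minus strand, the *Rcan1* window at chr16:92400029-92400328, minus strand, and the *Rcan3* window at chr4:135433756-135434055, minus strand.
Nfatc2: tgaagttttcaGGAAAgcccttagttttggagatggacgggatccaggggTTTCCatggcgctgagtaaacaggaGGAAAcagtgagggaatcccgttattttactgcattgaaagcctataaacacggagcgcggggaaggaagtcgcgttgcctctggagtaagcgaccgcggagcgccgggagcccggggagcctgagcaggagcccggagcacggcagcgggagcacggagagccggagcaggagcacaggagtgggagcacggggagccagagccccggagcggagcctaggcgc
Ppp3cb: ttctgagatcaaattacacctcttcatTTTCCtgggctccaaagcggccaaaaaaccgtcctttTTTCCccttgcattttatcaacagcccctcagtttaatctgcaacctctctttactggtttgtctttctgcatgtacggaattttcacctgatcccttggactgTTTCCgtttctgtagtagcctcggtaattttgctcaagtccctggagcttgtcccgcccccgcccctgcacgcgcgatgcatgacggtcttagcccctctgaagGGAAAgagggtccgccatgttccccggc
Rcan1: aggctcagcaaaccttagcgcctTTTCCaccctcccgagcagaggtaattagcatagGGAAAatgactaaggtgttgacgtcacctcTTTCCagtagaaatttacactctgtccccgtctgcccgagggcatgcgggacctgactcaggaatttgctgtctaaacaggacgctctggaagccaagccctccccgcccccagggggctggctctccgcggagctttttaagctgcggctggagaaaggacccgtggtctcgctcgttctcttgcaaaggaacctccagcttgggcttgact
Rcan3: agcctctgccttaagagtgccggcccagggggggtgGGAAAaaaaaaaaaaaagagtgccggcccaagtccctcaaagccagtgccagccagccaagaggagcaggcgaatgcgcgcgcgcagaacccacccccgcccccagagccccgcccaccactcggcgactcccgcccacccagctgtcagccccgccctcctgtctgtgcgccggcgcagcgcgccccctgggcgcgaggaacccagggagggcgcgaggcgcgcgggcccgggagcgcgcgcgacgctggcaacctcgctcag
The core occurred 3 times in this *Nfatc2* window, 4 times in that of *Ppp3cb*, 3 times in that of *Rcan1* and 1 time in that of *Rcan3*. The other *Nfatc2* window, chr2:168590316-168590615 on the minus strand, held it 1 time, and the median over all windows was 1. In all, 10 windows of 7 of the genes were used, and 7 of these 10 held the core on either strand, while 61.3% of all 32851 windows of this length did. The letters TTCNNNGAA, which STAT factors including STAT5 can bind, were in 0 of the 10 windows and in 8.30% of all windows. These matches are letters in a window and no evidence of binding. The second *Rcan1* window, chr16:92466120-92466419 on the minus strand at the outer promoter, held no GGAAA or TTTCC. No sequence is shown for *Nfatc1*, *Ppp3ca* and *Ppp3cc*, and windows of *Nfatc1*, if any, were left out.

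In thymic Tregs, 3 of the 10 genes were DE between CD25 KO and WT mice, namely *Ppp3cb*, which was higher, and *Nfatc2* and *Rcan3*, which were lower. Of all 16986 genes tested in the thymus, 6.16% were DE, 3.17% higher and 2.99% lower. In splenic Tregs, 4 of the 10 were DE, *Nfatc1* and *Ppp3cc* higher and *Ppp3ca* and *Rcan3* lower, against 9.45% of the 17463 genes tested there, 5.90% higher and 3.55% lower. Of the 10, *Rcan3* alone was DE in both tissues, and the share of all genes DE in both is not given here. All 10 genes passed the filter on low counts in each comparison. The median log2 fold change of the 10 thymic values was 0.10, beside -0.002 over all genes tested, and that of the 10 splenic values was 0.18, beside -0.006. With upper-quartile scaling, 808 of 1248 DE genes of the thymus were higher, in place of 539 of 1047, and 1 of the 10 genes described here was DE higher and 1 lower.

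**Figure D1:**
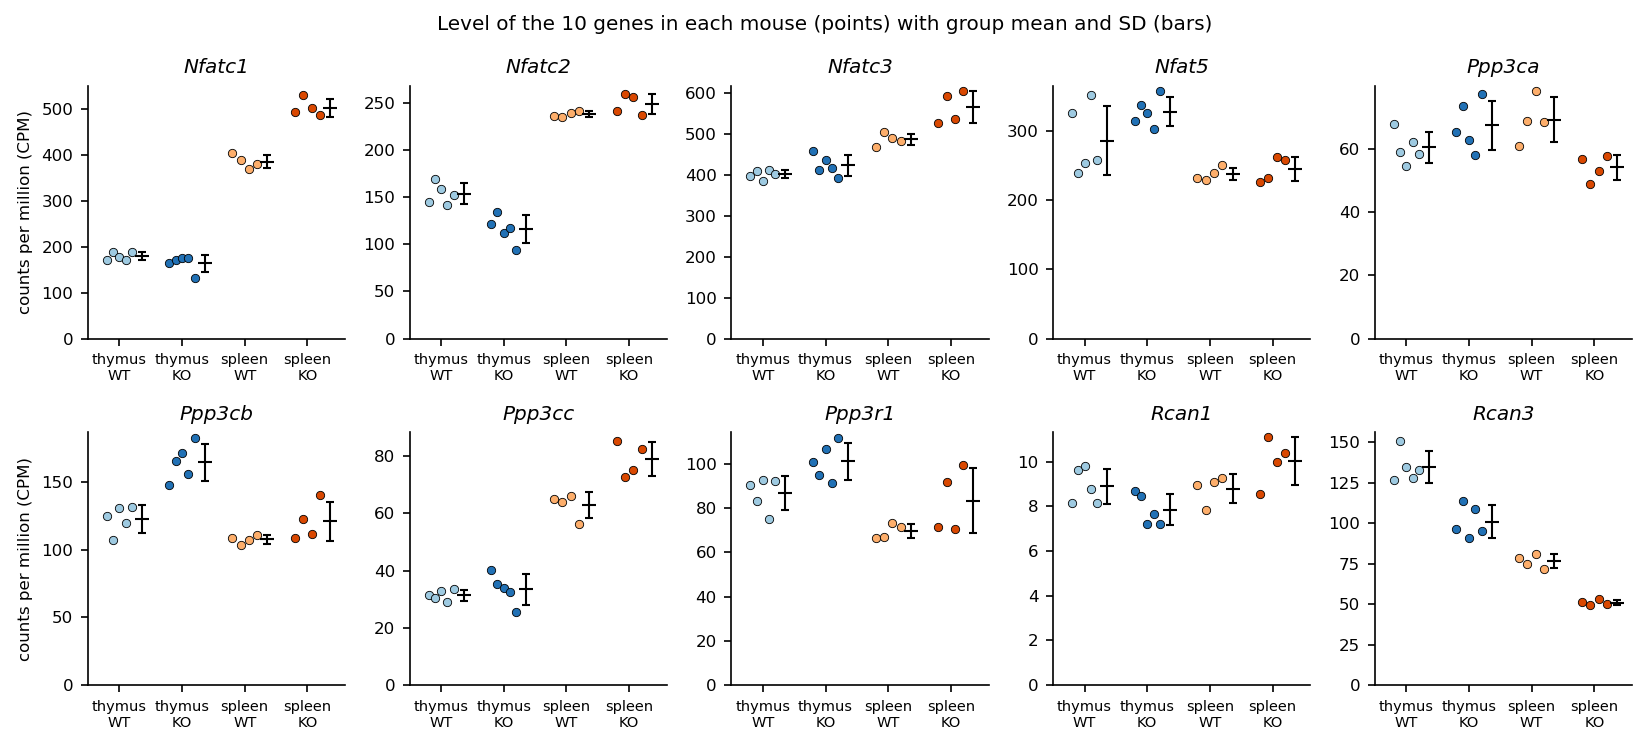
Level of each of the 10 genes in every mouse, in CPM (y axis, from 0), for thymic and splenic WT and CD25 KO mice (x axis). Points are mice and the bars to their right are the group mean ± SD. *Nfatc1* of the spleen lies between 369 and 530 CPM, above every thymic sample, and *Rcan3* steps down from thymic WT (127.4 to 150.9 CPM) to splenic CD25 KO (49.3 to 53 CPM).

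Among the NFAT factors, *Nfatc1*, also called NFAT2, differed most between the tissues. Its gene (ENSMUSG00000033016.15) lies on chromosome 18. Thymic WT samples had 172, 188, 178, 170 and 189 CPM (mean 179 ± 8.69, SD, n = 5) and thymic CD25 KO samples had 165, 170, 176, 176 and 132 CPM (164 ± 18.6, n = 5). These groups overlapped, and the lowest value belonged to mouse 5 of the CD25 KO group. The log2 fold change was -0.12 (SE 0.08, adjusted p = 0.283). Splenic WT samples had 403, 389, 369 and 380 CPM (385 ± 14.2, n = 4), whereas splenic CD25 KO samples had 493, 530, 501 and 486 CPM (502 ± 19.4, n = 4). Every splenic CD25 KO mouse was above every splenic WT mouse, and the group mean was 130% of WT. The log2 fold change of 0.39 (SE 0.05, adjusted p = 7.25e-05) was DE, and it stayed DE when any 1 of the 8 splenic mice was left out.

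*Nfatc2*, also called NFAT1, is a factor already present in resting T cells, and its gene lies at chr2:168476410-168601657 (ENSMUSG00000027544.16). Thymic WT samples had 145, 170, 159, 142 and 153 CPM (154 ± 11.3, n = 5) and thymic CD25 KO samples had 122, 135, 112, 117 and 94.3 CPM (116 ± 14.9, n = 5). All 5 CD25 KO values were below the lowest WT value, and the group mean was 75.6% of WT. The log2 fold change of -0.39 (SE 0.08, adjusted p = 0.00975) was just inside the threshold. It was outside once the trend of fold changes with GC content was removed (-0.25, adjusted p = 0.0269), and 9 of the 10 fits that leave out 1 thymic mouse gave an adjusted p above the threshold, up to 0.0315. In the spleen, WT samples had 236, 235, 240 and 242 CPM and CD25 KO samples had 242, 260, 257 and 238 CPM. Here the groups overlapped, with a log2 fold change of 0.07 (SE 0.05, adjusted p = 0.369).

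*Nfatc3*, also called NFAT4, is strongly expressed in thymocytes, and lies at chr8:106058840-106130537 (ENSMUSG00000031902.10). Thymic samples ranged from 385 to 410 CPM in WT and from 391 to 458 CPM in CD25 KO mice, with overlap (log2 fold change 0.09, SE 0.05, adjusted p = 0.203). Splenic WT samples had 468, 503, 488 and 483 CPM and splenic CD25 KO samples 526, 591, 536 and 605 CPM. Every splenic CD25 KO value was above every WT value, but the log2 fold change of 0.22 (SE 0.06, adjusted p = 0.0128) did not pass the threshold. Part of an exon of *Nfatc3* overlaps *Esrp2* on the other strand, and the strand setting of the counting is not given in the sources used here, so reads of this stretch are uncertain.

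*Nfat5*, the tonicity-responsive factor, lies at chr8:107293470-107379517 (ENSMUSG00000003847.16) on the same chromosome. Its thymic WT samples were 326, 240, 254, 353 and 258 CPM (286 ± 50.1, n = 5), with mice 1 and 4 well above the other 3, and thymic CD25 KO samples were 315, 338, 326, 304 and 359 CPM (328 ± 21.5, n = 5). The groups overlapped, and the log2 fold change was 0.21 (SE 0.11, adjusted p = 0.164). In the spleen, WT samples had 230 to 251 and CD25 KO samples 227 to 263 CPM (log2 fold change 0.04, SE 0.06, adjusted p = 0.654). *Nfat5* had the widest spread of the 10 genes within thymic WT mice, with a coefficient of variation of 17.5%.

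Each of the A subunits carries the phosphatase site, and each was DE in no more than 1 tissue. *Ppp3ca*, the alpha isoform at chr3:136670124-136937727 (ENSMUSG00000028161.17), had 54.7 to 68 CPM in thymic WT and 57.9 to 77.2 CPM in thymic CD25 KO samples, with overlap (log2 fold change 0.17, SE 0.09, adjusted p = 0.165). In the spleen, its WT samples had 60.9, 68.8, 78.4 and 68.6 CPM (69.2 ± 7.16, n = 4) and its CD25 KO samples 56.7, 49, 53.1 and 57.7 CPM (54.1 ± 3.95, n = 4). All splenic CD25 KO values were below all WT values, and the group mean was 78.2% of WT. The log2 fold change of -0.35 (SE 0.07, adjusted p = 0.00336) was DE. Leaving out splenic WT mouse 2, 3 or 4 or CD25 KO mouse 2 took it past the threshold, with an adjusted p of up to 0.0154.

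*Ppp3cb*, the beta isoform, is known as the main catalytic subunit of T cells and lies at chr14:20499364-20546573 (ENSMUSG00000021816.10). Its thymic WT samples had 125.3, 106.6, 131.1, 120.3 and 132.4 CPM (123 ± 10.5, n = 5) and its thymic CD25 KO samples 148, 166, 172, 156 and 183 CPM (165 ± 13.4, n = 5). Every CD25 KO value was above every WT value, and the group mean was 134% of WT. The log2 fold change of 0.44 (SE 0.08, adjusted p = 0.00358) was DE, but with the GC trend removed it was 0.17 (adjusted p = 0.0541). In the spleen, WT samples ranged from 104 to 111 and CD25 KO samples from 109 to 141 CPM (log2 fold change 0.17, SE 0.07, adjusted p = 0.106), with overlap.

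*Ppp3cc*, the gamma isoform, known for its high level in testis, lies on the same chromosome at chr14:70217865-70289471 (ENSMUSG00000022092.10). Thymic WT samples had 28.9 to 33.6 and thymic CD25 KO samples 25.4 to 40.1 CPM, so the WT range lay inside that of CD25 KO (log2 fold change 0.11, SE 0.10, adjusted p = 0.462). In the spleen, it had 65.2, 63.9, 66.1 and 56.2 CPM in WT (62.8 ± 4.54, n = 4) and 85.3, 72.9, 75.2 and 82.5 CPM in CD25 KO samples (79 ± 5.87, n = 4). Each splenic CD25 KO mouse was above each WT mouse. The log2 fold change of 0.33 (SE 0.07, adjusted p = 0.0024) was DE, and without splenic WT mouse 4, the lowest of its group, its adjusted p was 0.0112. A short stretch of *Ppp3cc* overlaps an antisense gene, *Gm49417*, whose reads cannot be told apart from it without strand.

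*Ppp3r1* encodes the B subunit, which binds calcium and is needed for the activity of each A subunit, and lies at chr11:17159263-17200375 (ENSMUSG00000033953.10). It had 75 to 92.8 CPM in thymic WT and 91.5 to 112 CPM in thymic CD25 KO samples, and the ranges overlapped at their edges (log2 fold change 0.24, SE 0.07, adjusted p = 0.0366). In the spleen, WT samples had 66.6, 67.2, 73.5 and 71.6 CPM, while CD25 KO samples had 71.6, 92, 70.4 and 99.5 CPM. Mice 2 and 4 of the splenic CD25 KO group were above all WT mice and the other two were within their range (log2 fold change 0.26, SE 0.09, adjusted p = 0.0701). *Ppp3r1* shares exonic sequence with *Wdr92* on the same strand, so its count is uncertain by the reads that fall there.

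The regulator *Rcan1* is itself induced by NFAT and feeds back on calcineurin. It was the lowest of the 10 genes per length in every group, and lies at chr16:92391953-92470867 (ENSMUSG00000022951.15). Thymic WT samples had 8.14 to 9.79 and thymic CD25 KO samples 7.19 to 8.70 CPM, with overlap (log2 fold change -0.17, SE 0.10, adjusted p = 0.24). Splenic WT samples had 8.95, 7.84, 9.08 and 9.26 CPM and splenic CD25 KO samples had 8.56, 11.1, 10 and 10.4 CPM (log2 fold change 0.19, SE 0.11, adjusted p = 0.235). Mice 2, 3 and 4 of the splenic CD25 KO group were above all WT mice and mouse 1 was not. The direction differed between the tissues, but the difference of the log2 fold changes, 0.37 (SE 0.14), had an adjusted p of 0.0759.

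*Rcan3*, a less studied member of the same family, was DE lower in CD25 KO Tregs of both tissues, and lies at chr4:135412308-135433853 (ENSMUSG00000059713.12). Thymic WT samples had 127.4, 150.9, 135.4, 127.9 and 133.3 CPM (135 ± 9.53, n = 5) and thymic CD25 KO samples had 96.3, 114, 90.8, 109 and 95.1 CPM (101 ± 9.77, n = 5). Splenic WT samples had 78.8, 74.8, 81.1 and 71.9 CPM (76.6 ± 4.1, n = 4) and splenic CD25 KO samples 51.4, 49.3, 53 and 50.3 CPM (51 ± 1.58, n = 4). In neither tissue did a CD25 KO mouse reach the level of a WT mouse, and the CD25 KO mean was 74.8% of that of thymic WT and 66.6% of that of splenic WT. Its log2 fold change was -0.40 (SE 0.07, adjusted p = 0.0042) for thymic Tregs and -0.58 (SE 0.05, adjusted p = 2.76e-06) for splenic Tregs. The thymic call was lost without WT mouse 2, 3 or 5 or CD25 KO mouse 1 or 3, with an adjusted p of at most 0.0151, and the splenic call was kept without any 1 mouse. The difference between the tissues, -0.17 (SE 0.09), did not pass the test (adjusted p = 0.226). *Rcan3* shares 44 bp of exonic sequence with the microRNA gene *Mir700* on the same strand, so reads that fall there are uncertain.

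**Figure D2:**
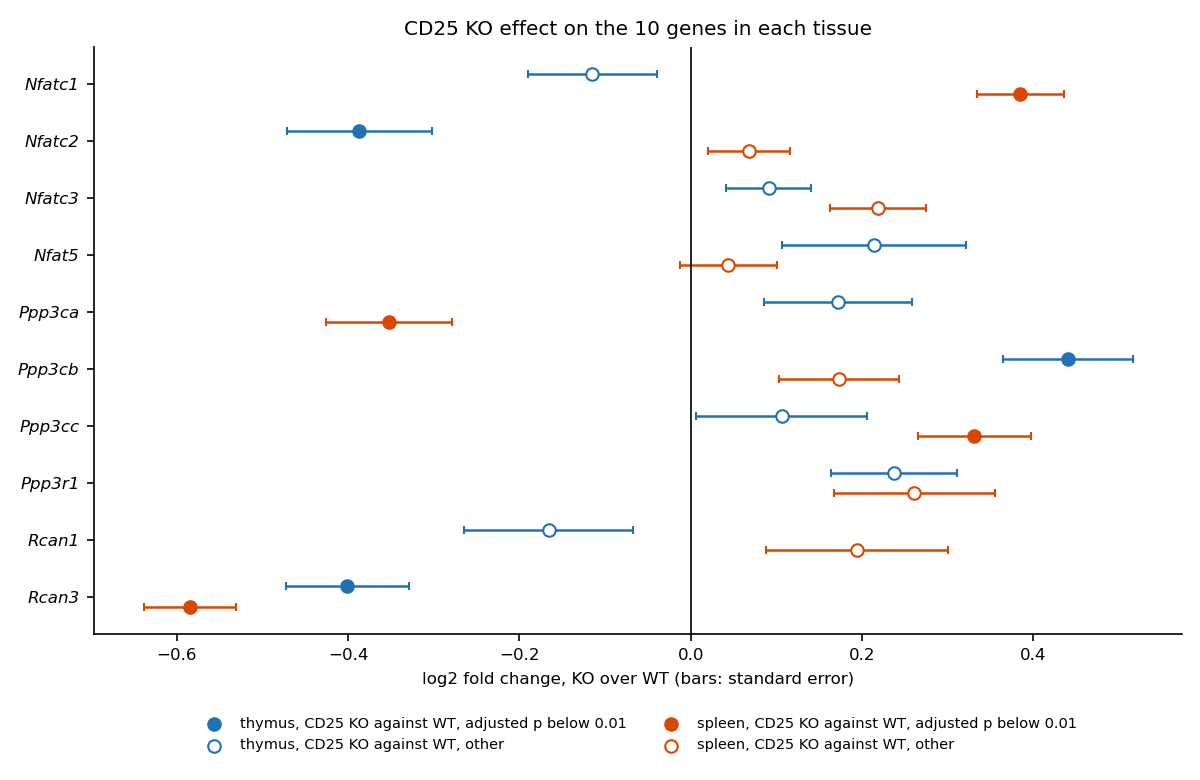
Log2 fold change of CD25 KO over WT (x axis) for each of the 10 genes (y axis) in thymus (blue) and spleen (orange), with standard errors as bars and filled points for an adjusted p below 0.01. *Rcan3* is left of 0 in both tissues, whereas *Nfatc1* is at -0.12 for the thymus and 0.39 for the spleen and *Ppp3ca* at 0.17 and -0.35.

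By CPM, the ranges of the genotypes were fully separate for 3 of the 10 thymic genes, 1 higher and 2 lower in CD25 KO, and for 5 of the 10 splenic ones, 3 higher and 2 lower. Among all 18632 genes compared in this way, 15.3% were separate in thymic and 19.3% in splenic samples. The splenic gene beyond the DE calls was *Nfatc3*.

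Whether the effect of CD25 loss differed between the tissues was tested in 1 fit of the 18 samples. The difference, spleen minus thymus, was DE for 3 of the 10 genes, 2 higher and 1 lower, against 6.98% of 18686 genes tested, 4.50% higher and 2.49% lower. *Nfatc1* differed by 0.52 (SE 0.10, adjusted p = 0.00135), with the rise in the spleen and -0.12 in the thymus. *Nfatc2* differed by 0.47 (SE 0.11, adjusted p = 0.00513), being lower in thymic CD25 KO samples and at 0.07 in the spleen. *Ppp3ca* differed by -0.51 (SE 0.12, adjusted p = 0.0079), being lower in the spleen and at 0.17 in the thymus. *Nfatc1* was DE in each of the 18 fits that leave out 1 mouse, *Nfatc2* in 8 and *Ppp3ca* in 3 of them. The other 7 genes had differences from -0.25 for *Ppp3cb* to 0.37 for *Rcan1* that did not pass.

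Between the WT groups, 6 of the 10 genes were DE in splenic against thymic Tregs, 4 higher and 2 lower, beside 40.4% of all genes, 21.0% higher and 19.5% lower. The same 6 genes had no overlap between the groups, as had 46.0% of all genes. *Nfatc1* had a log2 fold change of 1.10 (SE 0.07, adjusted p = 4.7e-11), its splenic WT mean being 215% of the thymic one. *Ppp3cc* had 1.00 (SE 0.09, adjusted p = 1.95e-08), at 200% of the thymic mean. *Nfatc2* (0.63, adjusted p = 6.01e-07) and *Nfatc3* (0.28, adjusted p = 0.000247) were higher in splenic WT as well. *Rcan3* was lower, at 56.8% of the thymic mean (log2 fold change -0.82, adjusted p = 3.54e-09), and so was *Ppp3r1* (-0.32, adjusted p = 0.00789). *Nfat5*, *Ppp3ca*, *Ppp3cb* and *Rcan1* were not DE, with log2 fold changes of -0.27, 0.19, -0.19 and -0.02. The median of the 10 genes was 0.09 and that of all genes 0.01. These values are a comparison of samples that differ in header date and mouse model.

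Levels of different genes were compared per length, as CPM divided by the kilobases of exon of a gene, all its transcripts joined (RPKM). In thymic WT Tregs, *Nfatc3* led with a mean of 34.2 RPKM, followed by *Ppp3r1* at 26.9, *Rcan3* at 26.4 and *Nfatc1* at 24 RPKM, whose ranges overlapped from each to the next. *Nfat5* at 15.6, *Nfatc2* at 14.5 and *Ppp3cb* at 14 RPKM followed with overlap among neighbours, and *Ppp3cc* at 10.5, *Ppp3ca* at 6.06 and *Rcan1* at 2.88 RPKM came last without it. In thymic CD25 KO Tregs, the order from *Nfatc3* at 36 RPKM to *Rcan1* at 2.54 RPKM had *Nfatc2*, at 11 RPKM, below *Ppp3cb*, at 18.8 RPKM, and their ranges did not overlap. In splenic WT Tregs, *Nfatc1* led with 51.6 RPKM, ahead of *Nfatc3* with 41.4, and *Nfatc2* at 22.5, *Ppp3r1* at 21.6 and *Ppp3cc* at 21.1 RPKM overlapped from each to the next, while *Nfatc2* and *Ppp3cc* themselves did not overlap. *Rcan3* followed at 15, *Nfat5* at 13, *Ppp3cb* at 12.2, *Ppp3ca* at 6.93 and *Rcan1* at 2.85 RPKM, and only *Nfat5* and *Ppp3cb* overlapped among these neighbours. In splenic CD25 KO Tregs, *Nfatc1* was at 67.3 and *Nfatc3* at 48.1 RPKM, and *Rcan3*, at 9.98 RPKM, stood below *Ppp3cb* at 13.8 and *Nfat5* at 13.3 RPKM.

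The make-up of each class followed from these levels. *Nfatc1* made up 27.2% ± 1.5 (SD, n = 5) of the summed RPKM of the 4 NFAT factors in thymic WT, 25.2% ± 1.98 (n = 5) in thymic CD25 KO, 40.1% ± 1.24 (n = 4) in splenic WT and 44.2% ± 1.21 (n = 4) in splenic CD25 KO Tregs. Among the A subunits, *Ppp3cb* had the largest share in thymic WT, 45.7% ± 1.78 (n = 5), and *Ppp3cc* in splenic WT, 52.3% ± 2.25 (n = 4). In splenic CD25 KO Tregs, *Ppp3cc* had 58% ± 2.44 (n = 4), and *Ppp3ca* had 11.9% ± 0.445 (n = 4), below the 17.2% ± 1.5 (n = 4) of splenic WT. By CPM, not divided by length, *Ppp3cb* was the most counted A subunit in each group, from 45% of the sum in splenic WT to 62.1% in thymic CD25 KO Tregs, so the lead of *Ppp3cc* in the spleen holds per length only. The same limit applies to *Nfatc1*: by CPM, *Nfatc3* had the larger share of the NFAT factors in the spleen, 36% against 28.6% for *Nfatc1* in WT and 36.1% against 32.2% in CD25 KO Tregs.

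**Figure D3:**
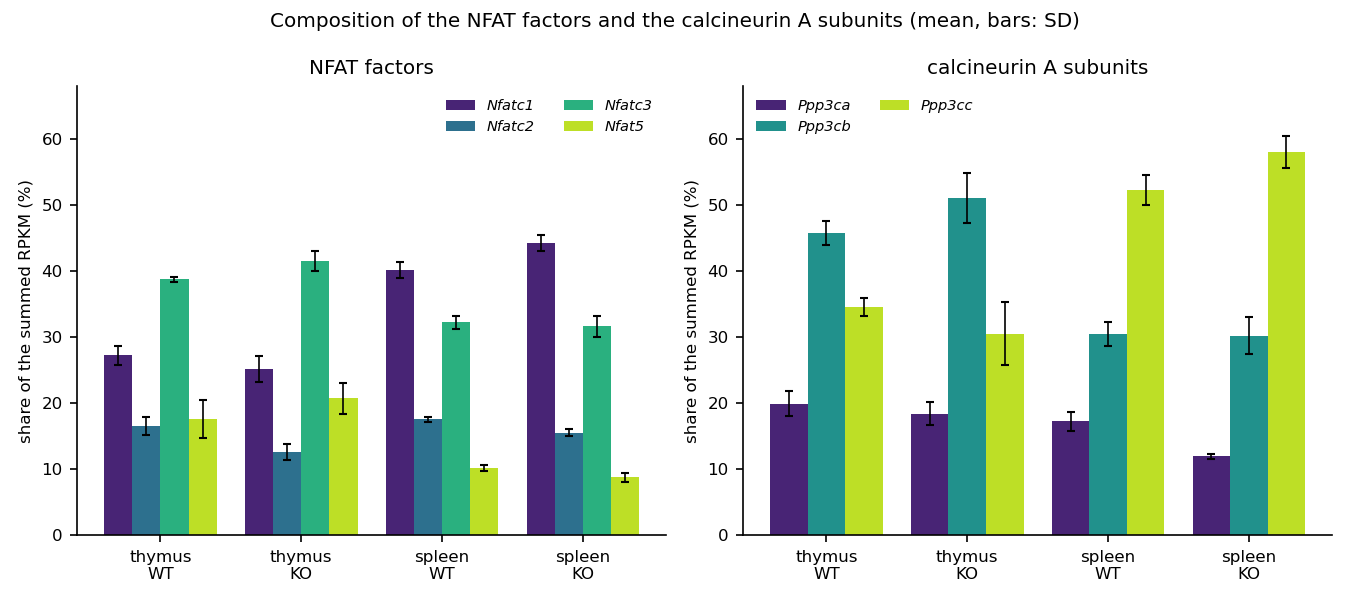
Share of each gene (y axis, percent of the summed RPKM) among the 4 NFAT factors (left) and the 3 calcineurin A subunits (right) in the 4 groups (x axis), as mean with SD. *Nfatc3* is tallest in both thymic groups and *Nfatc1* in both splenic groups, and *Ppp3cb* is tallest in the thymus and *Ppp3cc* in the spleen. By CPM, without length, *Nfatc3* and *Ppp3cb* lead in each group.

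Thymic fold changes followed the base composition of the transcripts. Over 16945 genes, the log2 fold change of the thymus had a Spearman's rho of -0.400 with the GC content of a gene's longest transcript, against -0.166 over 17423 genes in the spleen, given as a description across genes that share the same libraries. *Ppp3cb* had the lowest GC content of the 10 genes, 39.8%, and the largest thymic increase, and *Nfatc2* had the highest, 55.3%, and was DE lower. With the trend removed, *Rcan3* (GC content 50.8%) was the 1 gene that stayed DE in the thymus, at -0.33 (adjusted p = 0.00772), and the 4 DE genes of the spleen all stayed. The part of base composition in the thymic calls beyond this correction was not tested.

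**Figure D4:**
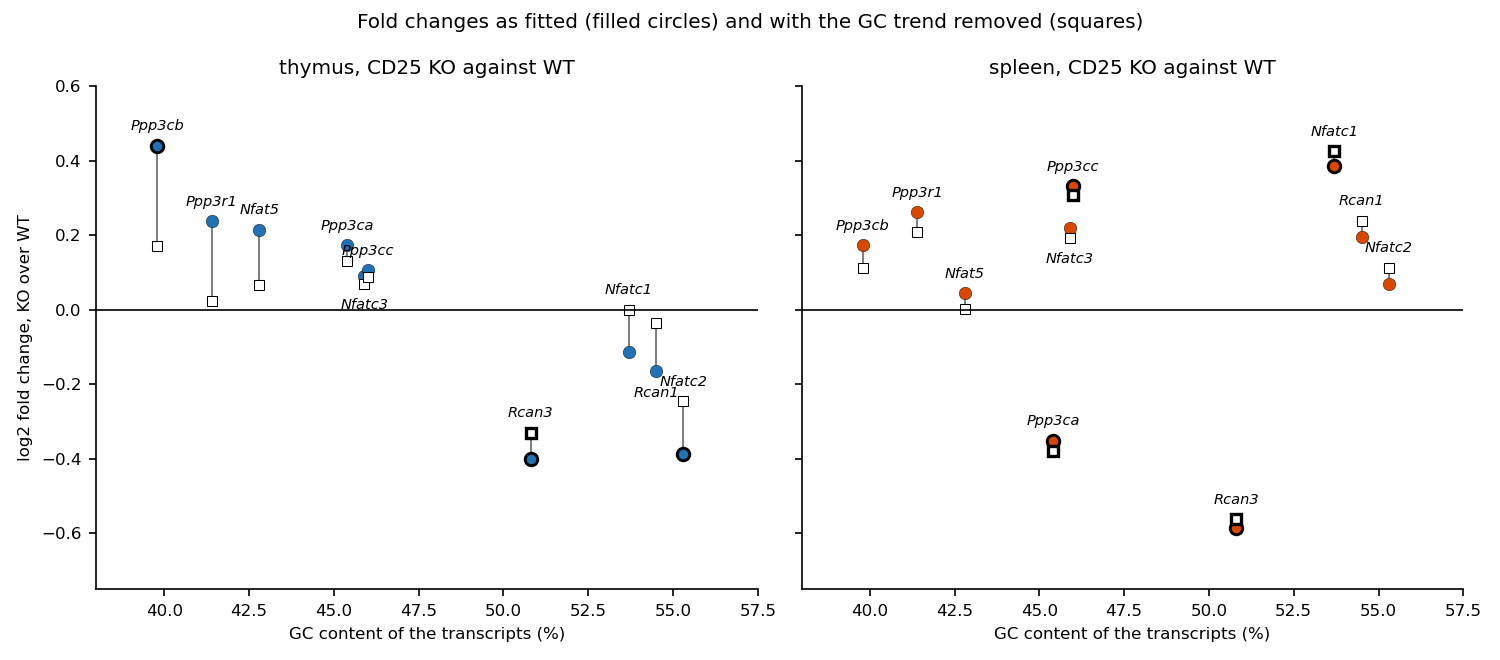
Log2 fold change of CD25 KO over WT (y axis) against the GC content of the transcripts (x axis, percent) for the 10 genes in thymus (left) and spleen (right), as fitted (filled circles) and with the trend with GC content removed (squares), thick outlines marking an adjusted p below 0.01. In the thymus the *Ppp3cb* and *Nfatc2* squares lie nearer 0, at 0.17 and -0.25, with thin outlines, while the *Rcan3* square keeps a thick one at -0.33.

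Other measures moved with genotype in the same samples. *Foxp3* was DE lower in CD25 KO Tregs of the thymus (log2 fold change -0.74, adjusted p = 0.00101) and of the spleen (-0.55, adjusted p = 6.9e-06). Of 6 genes that define Tregs, *Foxp3* and *Il2ra* among them, 3 were DE lower in thymic samples (3238 to 4110 CPM summed in WT against 2899 to 3515 in CD25 KO), and 3 were higher and 2 lower in splenic ones (3241 to 3441 against 3323 to 3688 CPM). The summed level of 5 effector Treg genes was 359 to 422 CPM in splenic WT and 586 to 706 CPM in splenic CD25 KO samples, all 5 being DE higher, and that of 5 central Treg genes was 1888 to 2264 against 1630 to 1787 CPM, with 3 DE lower and 1 DE higher. In the spleen, 5 of 5 cell cycle genes were DE higher (143 to 161 against 250 to 346 CPM summed). Of 4 genes of CD8 and NK cells, 3 were tested and 2 were DE higher (1.73 to 4.26 against 6.39 to 8.58 CPM, *Ncr1* at 0 in every splenic sample). Of 5 myeloid genes, 3 were tested and 1 was DE higher (34.3 to 39 against 46 to 47.9 CPM). Of 5 B cell genes, 3 were tested and 1 was DE higher (20.7 to 22.4 against 20.1 to 23.9 CPM). In the thymus, 4 of 5 effector Treg genes were DE lower (146 to 175 against 101 to 159 CPM). Tested there were 4 of 5 immature thymocyte, 2 of 5 B cell and 3 of 5 myeloid genes. So were 2 of 4 CD8 and NK and 2 of 3 erythroid genes. None of those tested was DE, but some were imprecise, such as *Lyz2* (log2 fold change -1.02, SE 0.85). Cell cycle genes ranged from 457 to 1095 CPM in thymic WT and from 145 to 951 CPM in thymic CD25 KO samples. The part of these in the levels of NFAT and calcineurin genes was not tested.

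Further genes of the pathway were read from lists of calcium entry, NFAT kinases and export, proteins that bind calcineurin, and NFAT and NFAT5 target genes. Of their 49 genes, 43 were tested in the thymus, of which 1 was DE higher and 4 lower, and 45 in the spleen, of which 10 were higher and 2 lower. Over all genes tested, 6.16% were DE in thymic Tregs (3.17% higher, 2.99% lower) and 9.45% in splenic Tregs (5.90% higher, 3.55% lower), and the small lists below are to be read against these shares. With the GC trend removed or 1 mouse left out, values were read per gene for the 10 genes only. The calls of other genes were not tested in these ways. The calcium entry genes had 1 of 12 DE in the thymus, the IP3 receptor *Itpr3* (log2 fold change -0.26, adjusted p = 0.00944), and 3 of 12 in the spleen, all higher: *Itpr1* (0.36, adjusted p = 0.000368) and the calmodulin genes *Calm2* (0.33, adjusted p = 0.00352) and *Calm3* (0.20, adjusted p = 0.00787). Among 9 kinase and export genes, *Dyrk2*, a kinase that phosphorylates NFAT, was higher in the thymus (0.28, adjusted p = 0.00367), and none was DE in the spleen. Of 7 tested genes that bind calcineurin or its drugs, *Fkbp1a*, the FK506 target, was lower in the thymus (-0.48, adjusted p = 0.00237), and none was DE in the spleen. *Nfatc4* had 0 counts in every sample, and *Ppp3r2* and *Rcan2* had at most 0.0922 and 0.0457 CPM.

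NFAT target genes that were DE were lower in the thymus and mostly higher in the spleen. In the thymus, 2 of 10 tested were DE, beside 6.16% of all genes, both lower: *Tnf*, a cytokine gene (log2 fold change -1.29, adjusted p = 0.001), and *Irf4*, a factor of effector Tregs (-0.81, adjusted p = 0.00497). In the spleen, 7 of 12 were higher and 1 was lower, beside 5.90% and 3.55% of all genes, with the cytokine genes *Il21* at 1.53 (adjusted p = 3.93e-05), *Il4* at 1.31 (adjusted p = 0.00104) and *Ifng* at 1.25 (adjusted p = 4.54e-05), and *Tnf* at -0.41 (adjusted p = 0.00022), lower as in the thymus. The difference, spleen minus thymus, was DE and above 0 for 6 of 12 target genes, beside 4.50% of all genes. These included *Tnf* (0.90, adjusted p = 0.00208), which was lower in both tissues, and *Ctla4* (0.62, adjusted p = 0.00864), which was DE in neither. *Il21* (2.52, adjusted p = 0.0203), *Il4* (1.30, adjusted p = 0.0248) and *Ifng* (1.86, adjusted p = 0.0732) did not pass the test of the difference. Their splenic WT means were 3.91, 1.92 and 2.67 CPM. Thymic samples had only 0.05 to 2.07 CPM of *Il21*, 0.495 to 1.09 of *Il4* and 0 to 0.339 of *Ifng*. *Ifng* was not tested within the thymus. With so few thymic counts, the test of the difference cannot show that the effects were alike. The list had a median log2 fold change of -0.37 among thymic and 0.63 among splenic genes tested. The 5 effector Treg genes had medians of -1.05 and 0.77, with 4 DE lower in the thymus and 5 DE higher in the spleen. The part of Treg subset make-up in the changes of the target genes was not tested. *Irf4*, *Il4*, *Ifng* and *Ctla4* were shown by the study from these samples, so their directions are not independent evidence. Of 5 NFAT5 target genes, none was DE in the thymus, and *Slc6a6*, the taurine transporter, was lower in the spleen (-0.22, adjusted p = 0.00629).

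The gene whose level was most like each of the 10 was found over the 18 samples with the tissue means removed, among 12908 genes, as a description without a test. *Rcan3* was most like *Lss*, the lanosterol synthase of cholesterol synthesis (Pearson's r = 0.96, 0.93 within the thymus and 0.99 within the spleen). *Nfatc1* was most like *Ptpn11*, the phosphatase SHP2 (r = 0.93), *Nfatc2* like *Rin3* (0.97), *Ppp3cb* like *Cnot7* (0.96) and *Ppp3r1* like *Ube2g1* (0.96). *Nfatc3*, *Nfat5*, *Ppp3ca*, *Ppp3cc* and *Rcan1* were most like *Sos2* (0.86), *Gm37186* (0.94), *Acsl3* (0.89), *Spata13* (0.88) and *Pdcd6ip* (0.88). Within the tissues, *Nfatc2* and *Rin3* had r = 0.98 in the thymus and only 0.64 in the spleen. The next lowest r within a tissue was 0.76, for *Nfatc3* and *Sos2* in the thymus. Among the 10 genes themselves, *Nfatc1* and *Ppp3ca* were most opposed (r = -0.87), and *Ppp3cb* and *Ppp3r1* were most alike (r = 0.80). All these values share libraries, genotype groups and depth, and the GC trend was not removed from them. *Ppp3cb* and *Ppp3r1* have the lowest GC contents of the 10 genes, 39.8% and 41.4%.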

How the data were processed

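RNA-seq of FACS-purified Tregs covered 18 mice in 4 groups of tissue and genotype, taken from the labels. The authors aligned reads to GRCm38 with STAR 2.5.0b, counted them on GENCODE M13 genes with featureCounts 1.5.0 and deposited raw counts without normalization. Whether the counting used strand is not given in the sources used here. The authors used DESeq2 to find DE genes. Symbols, coordinates, exonic length and GC content were from GENCODE M21 of the same build, which named 50376 of 50600 identifiers.

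Analyses used R 4.3.3 with edgeR 4.0.16. Genes were kept by filterByExpr, libraries scaled by TMM, and groups compared within each tissue by the quasi-likelihood test with FDR below 0.01; the difference between tissues and the WT groups were tested in 1 fit of 18 samples. Standard errors come from the fold change and the F statistic. RPKM divide TMM-scaled CPM by exonic length. The GC correction entered a smooth trend of each library as an offset. The procedure was tested on simulated data. DESeq2 1.42.0, other scalings and filters, GC and length trends, the mouse number as a block and leaving out each mouse were alternatives.

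The 10 genes and the lists were chosen with earlier results of these data known. All 10 genes were to be named, with up to 3 DE genes of each list by size of change in each direction and comparison, and for each of the 10 genes the 1 most alike. Replicates are individual mice. Reads carry no molecular identifiers.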

Additional observations from a re-analysis of the deposited data

Results flagged for a closer look

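*Nfatc1* in thymic CD25 KO mice had 1 value far from the others, 132 CPM in mouse 5 against 165 to 176 CPM in the other 4. It was the 1 such value in 40 sets of a gene and a group, where chance gives about 1 in 20. The effect of CD25 loss differed between the tissues, by the test of the difference in edgeR's quasi-likelihood fit, for *Nfatc1* (0.52 on the log2 scale, spleen minus thymus, adjusted p = 0.00135), *Nfatc2* (0.47, adjusted p = 0.00513) and *Ppp3ca* (-0.51, adjusted p = 0.0079). Tissue, header date and mouse model cannot be told apart in these differences.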

How the results depend on the processing

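The 3 thymic calls became 1 (*Rcan3*) with the GC trend removed, the 4 splenic calls became 2 (*Nfatc1* and *Rcan3*) with all 18 samples in 1 fit, and no call changed direction under any alternative. Leaving out 1 mouse gave 0 to 3 calls in the thymus (0 without CD25 KO mouse 3), 2 to 5 in the spleen (2 without WT mouse 4), 1 to 3 for the difference between tissues and 5 to 7 for splenic against thymic WT. *Nfatc3* was DE in the spleen with DESeq2 (adjusted p = 0.00206) and, like *Ppp3r1* (adjusted p = 0.00383), without a filter (0.0045). No pairing of thymic mice by number was seen: same-numbered deviations correlated at -0.239 to 0.144, and 1 of 5 numbers correlated best with itself. With 5 mice per group, this cannot exclude a pairing. With the number as a replicate block, 0 of the 3 thymic calls passed (adjusted p = 0.019 for *Nfatc2*, 0.0118 for *Ppp3cb* and 0.0113 for *Rcan3*), and 0 also with the GC trend removed, while all genes gave 209 DE in place of 1047. DESeq2 called 2763 genes in the thymus and 2188 for the difference, against 1047 and 1305, and kept the 3 thymic calls. Its adjusted p in the thymus was 0.000578 for *Nfatc2*, 6.52e-06 for *Ppp3cb* and 2.19e-05 for *Rcan3*. With upper-quartile scaling, 616 of 1285 differences were higher in place of 840 of 1305. Without thymic CD25 KO mice 2 and 4, left out after their higher *Il2ra* RNA was seen, 3 thymic calls were made. Higher *Il2ra* RNA does not show that functional CD25 was kept. Over the single genes, comparisons and alternatives, 63 values lost and 14 gained a call. Of the rest, 835 kept their sign and stayed called or not called, and 8 that passed in neither fit changed sign. These alternatives included an FDR below 0.05. The lowest count of any of the 10 genes in a sample was 132, for *Rcan1*, and groups held 4 or 5 mice.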
